A study of Mus musculus with 16 samples.

Results

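The transcripts described here are those of 40 genes that mark lymphocytes and plasma cells, with 16 T cell, 11 B cell, 10 plasma cell and 3 cytotoxic genes. They were taken by symbol from the 10 expression libraries of a mouse submandibular gland study, which held 55181 genes joined by symbol, and every member was found. The members were listed by name, with earlier results of these data known, so counts over them are descriptions. The study asked how the circadian clock of the gland relates to its loss of function after radiotherapy.

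All 10 libraries came from submandibular glands of mice labelled WT, aged 6 to 8 weeks, with 2 libraries per group. Unirradiated control glands were collected at the zeitgeber times ZT3, ZT9 and ZT15, which count hours from lights on. Irradiated glands were taken 6 h and 24 h after 5 Gy. The labels name neither sex nor strain, nor the hour at which mice were irradiated. They do not state that replicates were separate mice, so the p-values measure the spread between these samples. The same study mapped Bmal1 (the protein of Arntl), Nr1d1 and Dbp on gland chromatin by CUT&Tag, with 2 lists of summits per target. In CUT&Tag, antibody-guided transposase cuts chromatin near a bound protein. The genotype labels of the CUT&Tag samples read Bmal1 mouse, Nr1d1 mouse and Dbp mouse.

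T and B lymphocytes recognise antigen through receptors that signal with the CD3 chains and with CD79, respectively. Plasma cells are the antibody-secreting end stage of the B lineage. In salivary glands they lie in the stroma and make mainly dimeric immunoglobulin A, joined by the J chain, which the epithelium carries into saliva through the polymeric immunoglobulin receptor Pigr. Lymph nodes lie close to the submandibular gland, and lymphocytes enter them through high endothelial venules, whose cells make the mucin-like glycoprotein Glycam1.

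Values are FPKM (fragments scaled to transcript length and to the mapped fragments of the library). Total FPKM per library was 792860 to 1175327, and 19249 to 21843 genes were above 0. FPKM holds no counts, so depth was known only relative to ZT3 replicate 1, from 0.688 in ZT9 replicate 1 to 1.58 in 24 h replicate 1. The gland epithelium marker Epcam was at 129.5 to 261.5 FPKM in the 10 libraries. Amy1, an amylase of the parotid gland, was at 12.8 to 19203 FPKM and was highest in ZT15 replicate 2. Y-linked transcripts were present in both ZT3 libraries, ZT15 replicate 2, 6 h replicate 1 and 24 h replicate 1, and the gene order of the files set ZT9 and ZT15 apart from the other groups.

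Lymphoid RNA differed widely between the replicate glands of 3 groups. ZT3 replicate 2, ZT15 replicate 2 and 6 h replicate 2 were the 3 highest libraries for 37 of the 40 members, including all 16 T cell and all 11 B cell genes, 9 of 10 plasma cell genes and 1 of 3 cytotoxic genes. Among all 15161 genes tested, 4.62% had these 3 libraries as their highest. The genes tested had passed a filter on level, which 15 of the members passed only through these 3 libraries. The share is therefore a description and no test of the members. ZT15 replicate 2 was the highest of the 10 libraries for 37 members, against 15.4% of all genes tested. In bulk tissue, fewer cells of a type and less RNA per cell cannot be told apart.

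These 3 libraries were also the only ones with Glycam1, which was 0 and 18.2 FPKM in the ZT3 libraries, 0 and 0 in those of ZT9, 0 and 123 in those of ZT15, 0 and 82.4 at 6 h after irradiation, and 0 and 0 at 24 h. Of the 12 genes of lymphoid homing and lymph node stroma, 10 were highest in the same 3 libraries. Their summed level was 72.1, 267 and 147 FPKM in ZT3 replicate 2, ZT15 replicate 2 and 6 h replicate 2, and 4.68 to 19.7 FPKM in the other 7. Madcam1, an adhesion molecule of mucosal venules, and Ccl19, a chemokine of lymph node stroma, were at 0 in the same 7 libraries and reached 1.11 and 1.04 FPKM at most in the 3. The 3 libraries were not alike in these genes. Ccl21a, another gene of the list, was at 0 in both ZT3 libraries and at a mean of 0.276 FPKM at 6 h. The mean of Ccl19 over the ZT3 libraries was 0.0948 FPKM. The part of lymph node tissue in the levels below was not tested, and results that rest on these 3 libraries are therefore also given without them.

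**Figure D1:**
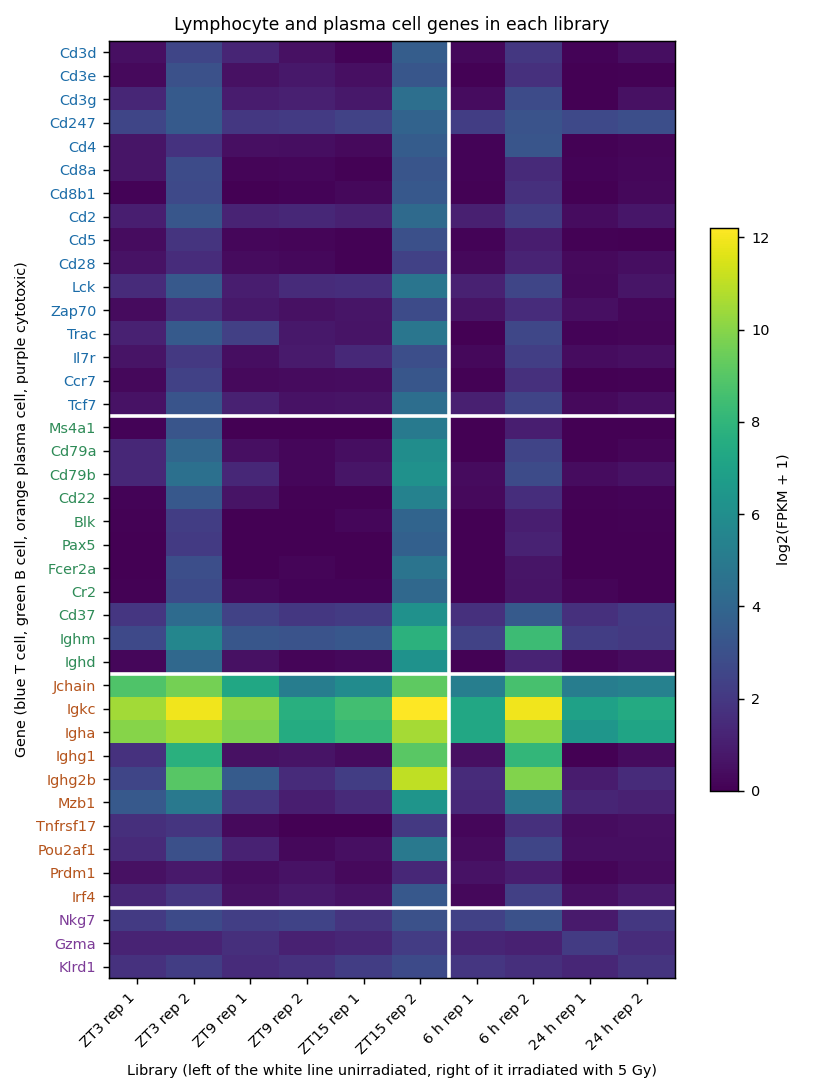
Heat map of the 40 members (rows, by class) in the 10 libraries (columns), coloured by log2(FPKM + 1). ZT3 replicate 2, ZT15 replicate 2 and 6 h replicate 2 are the 3 highest libraries for 37 of 40 members.

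Among T cell genes, the CD3 chains that carry the signal of the T cell receptor were near 0 in most glands and reached several FPKM in the 3 libraries with Glycam1. In replicate order, Cd3e was at 0.231 and 7.06 FPKM in the ZT3 libraries, 0.469 and 0.713 in those of ZT9, 0.428 and 8.75 in those of ZT15, 0.0355 and 2.25 at 6 h after irradiation, and 0 and 0.0343 at 24 h. Cd3g was at 1.44 and 10.1 FPKM in the ZT3 libraries, 0.910 and 1.10 in those of ZT9, 0.739 and 20.9 in those of ZT15, 0.320 and 5.90 at 6 h after irradiation, and 0 and 0.478 at 24 h. Both 24 h libraries were below both ZT3 libraries for either gene, while replicate 2 exceeded replicate 1 by far at ZT3, ZT15 and 6 h. The constant chain Trac, part of the alpha-beta T cell receptor itself, was at 1.14 and 10.00 FPKM in the ZT3 libraries, 3.92 and 0.721 in those of ZT9, 0.537 and 26.2 in those of ZT15, 0 and 4.98 at 6 h after irradiation, and 0.0848 and 0.115 at 24 h. Of the 7 libraries without Glycam1, Trac was highest in ZT9 replicate 1 and was listed at 0 in 6 h replicate 1.

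The coreceptor of helper T cells, Cd4, was at 0.594 and 2.49 FPKM in the ZT3 libraries, 0.417 and 0.365 in those of ZT9, 0.250 and 10.6 in those of ZT15, 0.0858 and 8.25 at 6 h after irradiation, and 0.0406 and 0.123 at 24 h. The coreceptor of killer T cells, Cd8a, was at 0.603 and 5.81 FPKM in the ZT3 libraries, 0.138 and 0.168 in those of ZT9, 0.0672 and 8.19 in those of ZT15, 0.0962 and 1.74 at 6 h after irradiation, and 0.0830 and 0.174 at 24 h. The 3 libraries with Glycam1 differed in this balance, since the ratio of Cd4 to Cd8a was 0.428 in ZT3 replicate 2, 1.30 in ZT15 replicate 2 and 4.73 in 6 h replicate 2. The ratio in 6 h replicate 2 was the highest of the 10 libraries, and those of the other 7 are ratios of values below 1 FPKM.

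Lck, the kinase that starts T cell receptor signalling, was at 1.79 and 9.49 FPKM in the ZT3 libraries, 0.984 and 1.80 in those of ZT9, 2.06 and 26.0 in those of ZT15, 1.17 and 4.84 at 6 h after irradiation, and 0.187 and 0.594 at 24 h. The receptor for the survival cytokine interleukin 7, Il7r, was at 0.575 and 3.09 FPKM in the ZT3 libraries, 0.365 and 0.865 in those of ZT9, 1.65 and 6.50 in those of ZT15, 0.200 and 3.75 at 6 h after irradiation, and 0.311 and 0.420 at 24 h. The lymph node homing receptor Ccr7 was at 0.212 and 4.14 FPKM in the ZT3 libraries, 0.229 and 0.274 in those of ZT9, 0.331 and 8.56 in those of ZT15, 0.0474 and 2.23 at 6 h after irradiation, and 0 and 0.0457 at 24 h. For each of these genes ZT15 replicate 2 was highest, and the 24 h libraries lay below both ZT3 libraries.

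Cd247, the zeta chain that natural killer cells also use, did not follow the other CD3 chains in the 7 libraries without Glycam1. It was at 2.94 to 6.61 FPKM there, where Cd3d was at 0.0836 to 1.43 FPKM and Cd3e at 0 to 0.713 FPKM. The 24 h libraries held 5.43 and 6.61 FPKM of Cd247, above ZT3 replicate 1 at 4.90 FPKM, whereas Cd3e was at 0 and 0.0343 FPKM. Of the remaining T cell genes, Cd8b1, Cd2, Cd5, Cd28, Zap70 and Tcf7 had values of 0 to 1.57 FPKM in the 7 libraries and 0.984 to 20.1 FPKM in the 3.

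**Figure D2:**
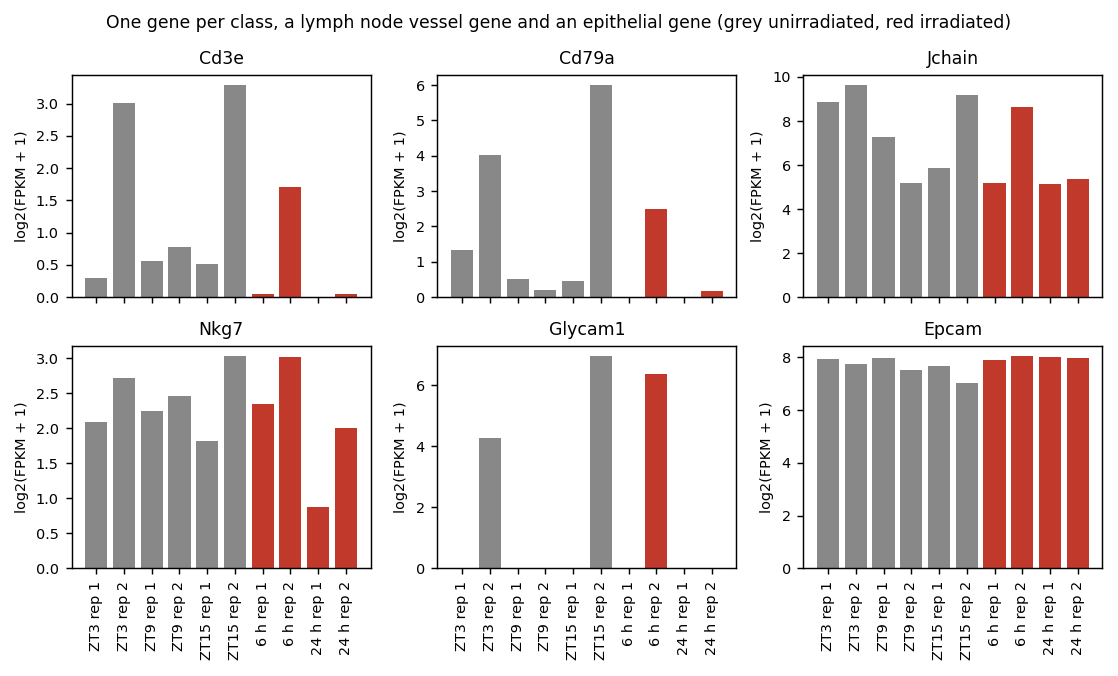
Level of a T cell (Cd3e), B cell (Cd79a), plasma cell (Jchain) and cytotoxic (Nkg7) gene, of Glycam1 and of the epithelial gene Epcam in each of the 10 libraries, as log2(FPKM + 1), with 1 bar per library. Glycam1 stands above 0 in ZT3, ZT15 and 6 h replicate 2 only, where Cd3e, Cd79a and Nkg7 are also at their highest, while Epcam spans 129.5 to 261.5 FPKM.

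B cell genes also differed widely between replicate glands. Ms4a1, which encodes the B cell surface protein CD20, was at 0.0968 and 8.30 FPKM in the ZT3 libraries, 0 and 0 in those of ZT9, 0 and 31.0 in those of ZT15, 0 and 1.02 at 6 h after irradiation, and 0 and 0 at 24 h. Cd79a, a signalling chain of the B cell receptor, was at 1.52 and 15.4 FPKM in the ZT3 libraries, 0.437 and 0.157 in those of ZT9, 0.379 and 62.8 in those of ZT15, 0 and 4.68 at 6 h after irradiation, and 0 and 0.131 at 24 h. In 6 of the 7 libraries without Glycam1 Ms4a1 was listed at 0, and in ZT15 both B cell genes were at 31.0 FPKM or more in replicate 2 and below 1 FPKM in replicate 1.

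Cr2, the complement receptor CD21, was at 0.0367 and 5.61 FPKM in the ZT3 libraries, 0.182 and 0.0752 in those of ZT9, 0.0781 and 16.5 in those of ZT15, 0.0329 and 0.560 at 6 h after irradiation, and 0.119 and 0.0317 at 24 h. Fcer2a, the low-affinity IgE receptor CD23 of follicular B cells, was at 0 and 6.56 FPKM in the ZT3 libraries, 0 and 0.118 in those of ZT9, 0 and 25.3 in those of ZT15, 0 and 0.634 at 6 h after irradiation, and 0 and 0 at 24 h. Both were above 5 FPKM in ZT3 replicate 2 and ZT15 replicate 2 and below 1 FPKM in 6 h replicate 2, although Glycam1 was higher in 6 h replicate 2 than in ZT3 replicate 2.

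The heavy chain of IgD, carried by naive B cells, followed the same order. Ighd was at 0.170 and 16.7 FPKM in the ZT3 libraries, 0.478 and 0.122 in those of ZT9, 0.215 and 73.7 in those of ZT15, 0.0526 and 1.30 at 6 h after irradiation, and 0.112 and 0.286 at 24 h. The heavy chain of IgM, Ighm, was at 5.39 and 47.8 FPKM in the ZT3 libraries, 8.53 and 7.81 in those of ZT9, 8.83 and 230.4 in those of ZT15, 4.24 and 325 at 6 h after irradiation, and 3.67 and 3.11 at 24 h. Ighm was thus highest in 6 h replicate 2, the exception among the B cell genes, and its ratio to Ighd was 250.6 there, against 2.87 and 3.13 in ZT3 and ZT15 replicate 2 and 10.9 to 80.6 in the other 7 libraries. Ighm and Ighd are spliced from overlapping transcripts on chromosome 12, so how reads were divided between them is uncertain.

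The other B cell genes, Cd79b, Cd22, Blk, Pax5 and Cd37, were highest in ZT15 replicate 2, and lay at 0 to 4.30 FPKM in the 7 libraries without Glycam1. Cd37, a tetraspanin that other leukocytes also carry, gave the upper end, and Pax5, the transcription factor that defines the B lineage, was at 0 to 0.0102 FPKM. The balance of B cell to T cell genes depended on the genes chosen. The ratio of Cd79a to Cd3e was 7.18 in ZT15 replicate 2, 6.59 in ZT3 replicate 1, 2.18 in ZT3 replicate 2 and 2.08 in 6 h replicate 2. That of Cd79b to Trac was 2.73 in ZT15 replicate 2, and 3.64 and 4.35 at 24 h, from values below 1 FPKM.

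Of the plasma cell genes, Jchain, Igkc and Igha were abundant in every gland. The J chain gene Jchain was at 459 and 791 FPKM in the ZT3 libraries, 154 and 35.4 in those of ZT9, 57.3 and 584 in those of ZT15, 35.8 and 401 at 6 h after irradiation, and 34.6 and 40.6 at 24 h. The constant region of the kappa light chain, Igkc, was at 1463 and 3931 FPKM in the ZT3 libraries, 1091 and 206 in those of ZT9, 357 and 4697 in those of ZT15, 156 and 3891 at 6 h after irradiation, and 124 and 172 at 24 h. The heavy chain of IgA, Igha, was at 1023 and 1573 FPKM in the ZT3 libraries, 906 and 181 in those of ZT9, 291 and 1517 in those of ZT15, 159 and 1114 at 6 h after irradiation, and 83.3 and 137 at 24 h. The library of 24 h replicate 1 was the lowest of the 10 for all 3 genes, and ZT3 replicate 1, which had no Glycam1, held 459 FPKM of Jchain, more than 6 h replicate 2. ZT9 replicate 1 also exceeded ZT9 replicate 2 several-fold for each of them with Glycam1 at 0 in both.

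The IgG heavy chains behaved differently from IgA. Ighg1 was at 2.37 and 214 FPKM in the ZT3 libraries, 0.479 and 0.574 in those of ZT9, 0.277 and 541 in those of ZT15, 0.398 and 272 at 6 h after irradiation, and 0 and 0.287 at 24 h. Ighg2b was at 4.94 and 513 FPKM in the ZT3 libraries, 10.4 and 1.87 in those of ZT9, 3.58 and 2068 in those of ZT15, 1.81 and 945 at 6 h after irradiation, and 0.874 and 1.84 at 24 h. Both were at 214 FPKM or more in the 3 libraries with Glycam1 and at most 10.4 FPKM in the other 7. Ighg2b and Ighg2c are related genes, and how reads were divided between them was not checked. Their sum with Ighg1 and Ighg3 is used next.

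In the 7 libraries without Glycam1, IgA made up 92.8 to 97.8% of the summed heavy-chain FPKM and IgG 1.45 to 4.02%. In ZT3, ZT15 and 6 h replicate 2 the IgA share was 50.5, 29.3 and 27.6%, and the IgG share was 47.4, 64.8 and 64.2%. Within the 7, the IgA share of the 3 irradiated libraries, 93.7 to 95.3%, lay inside the range of the 4 unirradiated ones. Igkc was 87.3 to 98.1% of the light-chain FPKM in the 10 libraries, and light and heavy chains summed to similar levels, at ratios of 0.979 to 1.61.

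**Figure D3:**
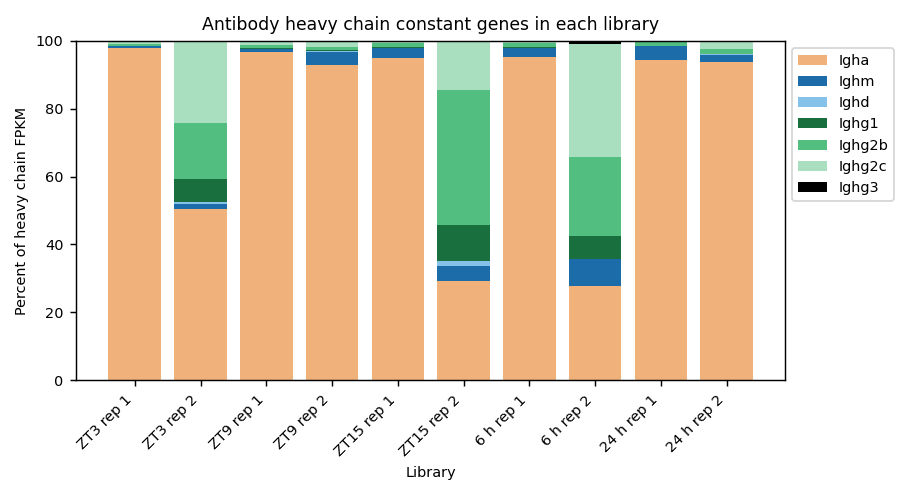
Share of each immunoglobulin heavy chain in the summed heavy-chain FPKM of each of the 10 libraries, in percent, as stacked bars. Igha takes 92.8 to 97.8% in the 7 libraries without Glycam1 and 27.6 to 50.5% in the 3 with it.

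Genes of the plasma cell's secretory and transcriptional programme were much lower. Mzb1, a chaperone for antibody assembly, was at 9.50 and 29.8 FPKM in the ZT3 libraries, 2.82 and 1.02 in those of ZT9, 1.75 and 80.1 in those of ZT15, 1.61 and 27.1 at 6 h after irradiation, and 1.41 and 1.21 at 24 h. The survival receptor Tnfrsf17 (BCMA) was at 2.16 and 2.64 FPKM in the ZT3 libraries, 0.233 and 0 in those of ZT9, 0 and 3.09 in those of ZT15, 0.146 and 2.27 at 6 h after irradiation, and 0.308 and 0.419 at 24 h. In ZT3 replicate 1, which lacked Glycam1, Mzb1, Tnfrsf17 and Jchain all stood above their values in the other 6 such libraries. So did Cd79a of the B cell genes and Cd3g, Cd4 and Cd8a of the T cell genes, while Cd3e, Trac and Lck did not.

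Prdm1, the transcription factor that fixes plasma cell fate, was at 0.454 and 0.756 FPKM in the ZT3 libraries, 0.316 and 0.502 in those of ZT9, 0.252 and 1.54 in those of ZT15, 0.530 and 0.971 at 6 h after irradiation, and 0.109 and 0.291 at 24 h. Irf4, a factor needed for plasma cell formation, was at 1.47 and 2.82 FPKM in the ZT3 libraries, 0.440 and 0.776 in those of ZT9, 0.532 and 9.13 in those of ZT15, 0.199 and 3.96 at 6 h after irradiation, and 0.411 and 0.822 at 24 h. Both were highest in ZT15 replicate 2 and lower in both 24 h libraries than in both ZT3 libraries. Prdm1 was the member left out of the tests, since it reached 1 FPKM in ZT15 replicate 2 alone. Pou2af1, a B lineage coactivator of antibody genes, was at 0.206 to 1.75 FPKM in the 7 libraries and 4.92 to 29.5 FPKM in the 3.

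The cytotoxic genes varied least. Nkg7, a granule protein of natural killer and killer T cells, was at 3.27 and 5.59 FPKM in the ZT3 libraries, 3.72 and 4.51 in those of ZT9, 2.51 and 7.15 in those of ZT15, 4.08 and 7.06 at 6 h after irradiation, and 0.830 and 3.003 at 24 h. The protease granzyme A, Gzma, was at 1.34 and 1.33 FPKM in the ZT3 libraries, 2.09 and 1.21 in those of ZT9, 1.46 and 3.43 in those of ZT15, 1.40 and 1.17 at 6 h after irradiation, and 3.33 and 1.89 at 24 h. The natural killer receptor chain Klrd1 (CD94) was at 2.38 and 3.66 FPKM in the ZT3 libraries, 1.82 and 2.34 in those of ZT9, 3.71 and 5.68 in those of ZT15, 2.78 and 2.15 at 6 h after irradiation, and 1.52 and 2.54 at 24 h. These genes differed over 2-fold between replicates on the log2(FPKM + 1) scale in no case at ZT3, ZT9 or 6 h, and in 1 of 3 cases at ZT15 and at 24 h. Of all members, 30 differed over 2-fold between replicates at ZT3, 38 at ZT15 and 30 at 6 h, but 6 at ZT9 and 1 at 24 h, where 5.03 to 11.4% of all genes tested did so across the 5 groups.

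Through the day, limma called no member between control times. In ZT9 against ZT3, 0.0066% of genes tested were called, in ZT15 against ZT3 0.0198%, and in ZT15 against ZT9 0%, with 1106 genes at an unadjusted p under 0.05. At an unadjusted p under 0.05 there was 1 member in ZT9 against ZT3 (Tnfrsf17), 0 in ZT15 against ZT3 and 1 in ZT15 against ZT9 (Klrd1). The F test over the 3 times called 0 members, with 0.0198% of genes called and 1 member, Klrd1, at an unadjusted p under 0.05.

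Median log2 differences of ZT9 from ZT3 were -0.97 for T cell, -1.38 for B cell, -1.99 for plasma cell and -0.06 for cytotoxic genes. Y-linked transcripts were present in both ZT3 libraries and at 0 in both ZT9 libraries. These groups alone therefore do not separate time of day from the sex of the mice. The part of sex in these medians was not tested. Both ZT9 libraries lay below both ZT3 libraries for 19 of 40 members, where 24.2% of genes tested did. For ZT15 against ZT3 the medians were 0.42, 0.90, -0.15 and 0.50, and both ZT15 libraries exceeded both ZT3 libraries for 2 members, as did 25.5% of genes tested. For ZT15 against ZT9 they were 1.41, 2.37, 1.37 and 0.34, and 8 members were higher in both ZT15 libraries, as were 20.6% of genes tested. In replicate 1 alone Glycam1 was at 0 at all 3 times. There the summed T cell level was 14.7 FPKM at ZT3, 15.4 at ZT9 and 13.1 at ZT15. The summed B cell level was 11.7, 16.0 and 13.6 FPKM. Ighm made up the largest part of each B cell sum, whereas Cd79a and Ms4a1 of replicate 1 were highest at ZT3. The summed plasma cell level of replicate 1 was 2968, 2168 and 712 FPKM, and that of ZT9 replicate 2, also without Glycam1, was 427 FPKM.

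At 6 h after irradiation, set against ZT9, limma called no member at an adjusted p under 0.05 by the Benjamini-Hochberg method, with 0 members at an unadjusted p under 0.05, while 0.514% of genes tested were called. The median log2 differences were 0.57 for T cell, 0.51 for B cell, 0.73 for plasma cell and 0.17 for cytotoxic genes, beside 0.12 for all genes tested. They turned to -0.17, -0.13, -0.38 and -0.01 without 6 h replicate 2, and lay at -0.47, -1.04, -0.77 and -0.03 with ZT3 as the control. Of the 40 members, 0 were lower in both 6 h libraries than in both ZT9 libraries, as were 12.4% of genes tested, and 2 were higher, Cd247 and Prdm1, as were 30.8%.

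At 24 h the summed T cell level was 7.47 and 10.7 FPKM, against 14.7 and 95.8 FPKM at ZT3. The summed B cell level was 6.54 and 7.34 against 11.7 and 156 FPKM, and the summed plasma cell level was 246 and 355 against 2968 and 7065 FPKM. In no class of these 3 did the libraries at 24 h and ZT3 overlap. Cd247 made up most of the T cell sum at 24 h, and Ighm with Cd37 most of the B cell sum. Set against ZT3, both 24 h libraries were below both control libraries for 30 of 40 members, against 10.7% of genes tested, with 13 of 16 T cell, 6 of 11 B cell, all 10 plasma cell and 1 of 3 cytotoxic genes. The exception in the other direction was Gzma, higher in both 24 h libraries at 0.60 on the log2 scale, as were 46.4% of genes tested. The median log2 differences were -1.27 for T cell, -1.64 for B cell, -3.26 for plasma cell and -0.41 for cytotoxic genes, beside 0.21 for all genes tested.

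None of these members passed the test, and 0.495% of genes tested did. limma with Benjamini-Hochberg adjustment gave Igha, at 110.1 ± 38.0 FPKM against 1298 ± 389 (SD, n = 2 each), a log2 difference of -3.56 (SE 1.15, adjusted p = 0.191). The same limma fit gave Jchain, at 37.6 ± 4.25 against 625 ± 234 FPKM, a log2 difference of -3.97 (SE 1.36, adjusted p = 0.203). For Igkc, 148 ± 33.7 against 2697 ± 1745 FPKM, limma gave -4.03 (SE 1.69, adjusted p = 0.267). These 3 were the members at an unadjusted p under 0.05. All values of the 3 genes at 24 h lay below those at ZT3.

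The size of the 24 h difference depended on ZT3 replicate 2. Without it the medians were -0.26, -0.03, -1.47 and -0.18 for T cell, B cell, plasma cell and cytotoxic genes, and without ZT3 replicate 1 they were -2.44, -3.22, -3.80 and -0.64. With ZT9 as the control they were -0.33, -0.11, -0.35 and -0.04. The ZT3 and ZT9 controls also differed in Y-linked transcripts, which were present in both ZT3 libraries and at 0 in both ZT9 libraries. The erythrocyte gene Hba-a1 was also low at 24 h, at 8.36 and 7.39 FPKM against 35.0 and 27.8 FPKM at ZT3, and 4 of 5 blood genes were lower in both 24 h libraries than in both at ZT3, with a median of -1.36. The part of blood in the result was not tested.

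**Figure D4:**
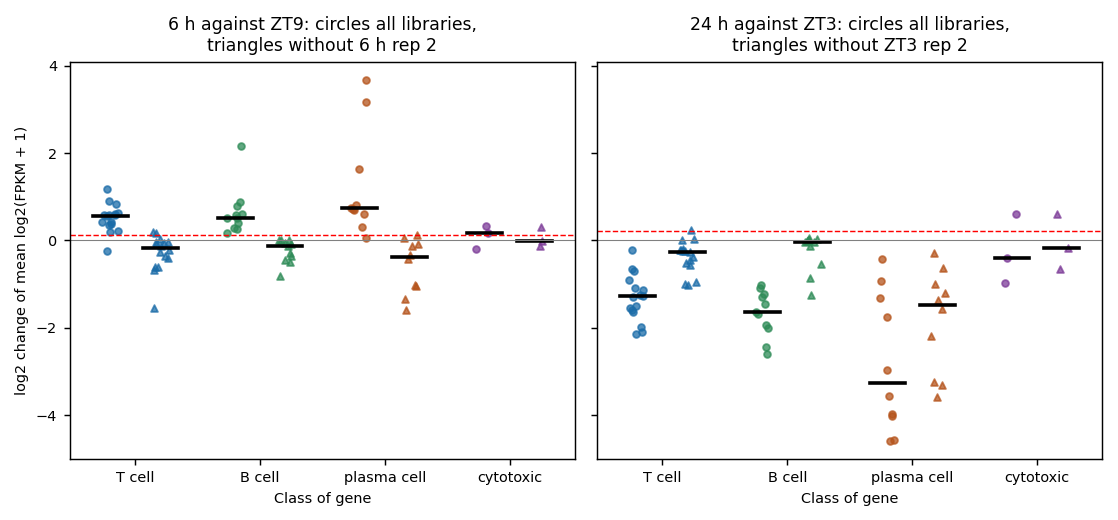
Log2 difference of each member at 6 h against ZT9 and at 24 h against ZT3, by class, with all libraries (circles) and without 6 h replicate 2 or ZT3 replicate 2 (triangles). The black line marks the class median and the red dashed line the median of all genes tested; plasma cell genes lie lowest at 24 h, with a median of -3.26, or -1.47 without ZT3 replicate 2.

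Between the irradiated times, limma called 0 members in 24 h against 6 h, with 0.0198% of genes called and 1 member, Nkg7, at an unadjusted p under 0.05. Both 24 h libraries were below both 6 h libraries for 14 of 40 members, against 21% of genes tested. Class medians were -0.84, -0.58, -1.78 and -0.21 for T cell, B cell, plasma cell and cytotoxic genes. Without 6 h replicate 2 the groups were closer, since 6 h replicate 1 had summed levels of 8.84, 7.08 and 355 FPKM for T cell, B cell and plasma cell genes. The change at 24 h less the change at 6 h was called for 0 members by limma, with 0.0198% of genes called and Jchain the 1 member at an unadjusted p under 0.05.

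Of the other pathway genes, none of 12 in the T cell receptor pathway and none of 12 in the B cell receptor pathway was called by limma in 24 h against ZT3, with 1 and 0 at an unadjusted p under 0.05. Sdc1 (CD138), a plasma cell surface proteoglycan that epithelia also make, was the called gene among the antibody and plasma cell genes at 6 h. It was at 6.61 and 8.19 FPKM in the ZT3 libraries, 6.56 and 6.08 in those of ZT9, 7.55 and 8.46 in those of ZT15, 22.3 and 19.4 at 6 h after irradiation, and 7.75 and 10.9 at 24 h. Both 6 h libraries exceeded the other 8, and limma gave a log2 difference from ZT9 of 1.58 (SE 0.20, adjusted p = 0.0213), while no member of the plasma cell class was called.

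A comparison added after the values were seen pooled irradiated against unirradiated glands. Over all 10 libraries, 38 of 40 members had a lower mean after irradiation, with a median of -0.85 beside 0.14 for all genes tested. limma called 0 members, with 1.18% of genes called, none of the members at an unadjusted p under 0.05 and a smallest adjusted p of 0.361. No member was lower in every irradiated library than in every unirradiated one, as were 0.297% of genes tested, and 0 were higher in every one, as were 4.58%.

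Among the 7 libraries without Glycam1, 3 were irradiated and 4 were not, and every irradiated library lay below every unirradiated one for 10 of 40 members, against 1.24% of the 14512 genes tested. These were Cd3e, Cd3g, Cd4, Trac and Ccr7 of the T cell genes, Cd79a and Ighm of the B cell genes, and Igkc, Igha and Ighg2b of the plasma cell genes. The share of 1.24% is over genes that passed the filter in these 7 libraries, which Cd3e, Cd4, Ccr7 and Cd79a did not. In the related lists, 1 of 12 genes of the T cell receptor pathway, 0 of 12 of the B cell receptor pathway and 0 of 6 pan leukocyte genes were lower in every irradiated library. Of 11 other antibody and plasma cell genes, 2 were lower and 2 higher in every irradiated library. Of 9 natural killer and cytotoxic genes outside the members, 1 was lower and 1 higher. Of the B cell receptor pathway 5 of 12 genes had a lower mean, with a median of 0.02. No member was higher in every irradiated library, as were 11.6% of genes tested. limma tested 18 of the members, called 0, with 0.358% of genes called, and had 7 at an unadjusted p under 0.05.

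The smallest adjusted p among them was for Ighm, at 3.11 to 4.24 FPKM after irradiation and 5.39 to 8.83 FPKM without it, and limma gave a log2 difference of -0.87 (SE 0.20, adjusted p = 0.169). Igha was at 83.3 to 159 FPKM against 181 to 1023 FPKM, with a log2 difference of -1.94 (SE 0.60, limma adjusted p = 0.289). Jchain overlapped, at 34.6 to 40.6 FPKM against 35.4 to 459 FPKM. Several of these members were close to 0 in all 7 libraries, such as Cd3e at 0 to 0.0355 FPKM against 0.231 to 0.713 FPKM.

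Other cell types moved as well in these 7 libraries. All 5 erythrocyte genes had lower means after irradiation, with a median of -1.35. For 1 of them every irradiated library was lower, as for 1.24% of genes tested. Of 9 macrophage genes, 5 were higher in every irradiated library, against 11.6% of genes tested, with a median of 0.45. The epithelium genes had a median of 0.09. Amy1 was higher after irradiation by 4.74 on the log2 scale, with overlapping ranges. The 4 Y-linked genes had a median of 1.70, being present in 6 h replicate 1, 24 h replicate 1 and ZT3 replicate 1. limma called neither Amy1 nor a Y-linked gene. The 3 irradiated libraries shared their file gene order with 1 of the 4 unirradiated ones, ZT3 replicate 1. The parts of that order, of parotid tissue and of the sex of the mice were not tested.

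**Figure D5:**
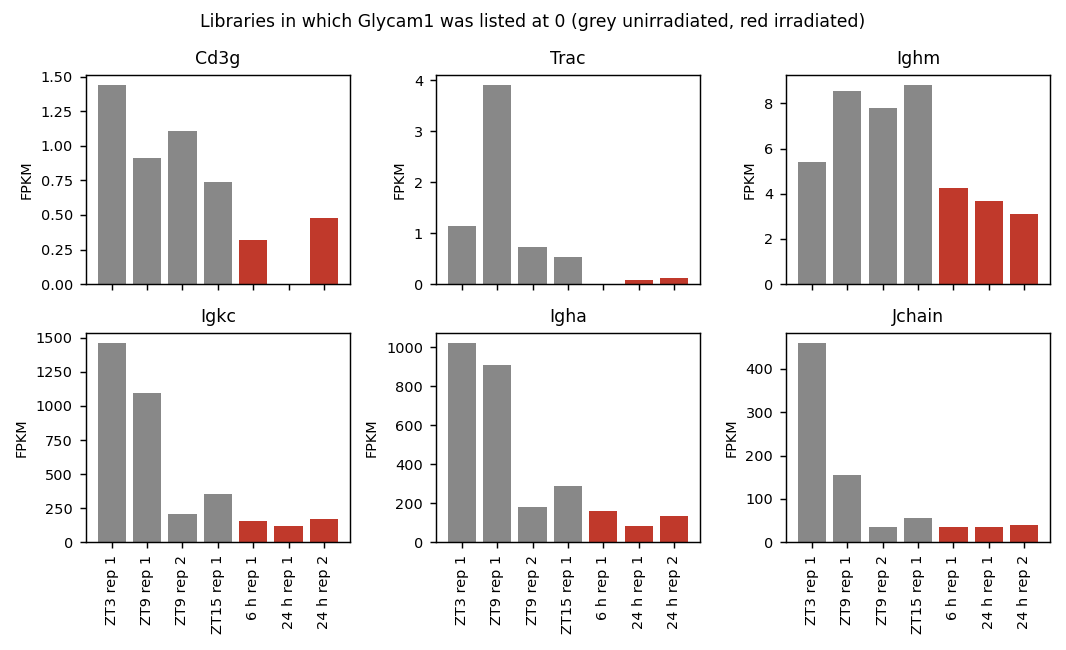
FPKM of Cd3g, Trac, Ighm, Igkc, Igha and Jchain in the 7 libraries with Glycam1 at 0, with 1 bar per library. Each irradiated library (6 h replicate 1 and both at 24 h) lies below each unirradiated one except for Jchain, whose ranges overlap.

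Within the same 7 libraries, 1 of 6 pairs of representative genes passed the adjusted threshold by Pearson's r and none by Spearman's rho. Cd79a and Jchain had a Pearson r of 0.955 (exact permutation p = 0.00397, adjusted over 6 pairs 0.0238) and a Spearman rho of 0.865 (exact permutation p = 0.0167, adjusted 0.1). Without the 2 libraries farthest from the median of Cd79a, r was 0.897 over 5 libraries. The permutations ran across irradiated and unirradiated libraries alike, and Cd79a was lower in every irradiated one. The p-values therefore do not set irradiation apart from other variation between libraries. The other 5 pairs of Cd3e, Cd79a, Jchain and Nkg7 had adjusted p-values of 0.633 to 0.783 for Pearson's r by the exact permutation test. The 2 file orders held 4 and 3 of these libraries, too few for a value within each, and over all 10 libraries no r is given, since the libraries fell into separate clusters.

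Gene starts were taken from RefSeq on GRCm38.p6, the primary assembly of mm10, which held promoters for 23 of 40 members. Cd3g, Cd3d and Cd3e lie side by side on chromosome 9 (Cd3g at chr9:44969572-44980431, Cd3e at chr9:44998735-45009663), and Igha, Ighd and Ighm on chromosome 12 (Igha at chr12:113256204-113260236, Ighm at chr12:113418826-113422730). The windows of 300 bases, 250 before the start and 50 after, were searched on both strands for ATGCAAAT, the octamer of immunoglobulin promoters, and for CACGTG, the E-box bound by clock proteins. The octamer was in 0 of 23 members, against 1.97% of all 27025 genes with promoters. The 23 held no immunoglobulin heavy or light chain gene, so no immunoglobulin promoter was searched among the members. The E-box was in 2 of 23, 8.70%, against 8.09% of all genes.

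The E-box promoters were those of Cd37, a B cell tetraspanin, and Zap70, the kinase that binds phosphorylated CD3 chains, and they are shown 5′ to 3′ on the gene's strand with the E-box in capitals. The promoter of Cd37 is chr7:45238790-45239089 on the minus strand, with the E-box beginning at -228 bases from the start. That of Zap70 is chr1:36778734-36779033 on the plus strand, at the third of its listed starts, with the E-box beginning at -2. The promoter of Prdm1, chr10:44458699-44458998 on the minus strand, is shown with the 21 bases around the Bmal1 summit of replicate 1 in capitals, because that summit lies inside the window.
Cd37: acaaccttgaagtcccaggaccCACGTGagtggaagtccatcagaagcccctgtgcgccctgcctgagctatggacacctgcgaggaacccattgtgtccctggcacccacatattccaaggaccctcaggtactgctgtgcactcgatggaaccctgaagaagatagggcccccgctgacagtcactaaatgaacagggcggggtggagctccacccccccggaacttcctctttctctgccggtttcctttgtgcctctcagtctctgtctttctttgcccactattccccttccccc
Zap70: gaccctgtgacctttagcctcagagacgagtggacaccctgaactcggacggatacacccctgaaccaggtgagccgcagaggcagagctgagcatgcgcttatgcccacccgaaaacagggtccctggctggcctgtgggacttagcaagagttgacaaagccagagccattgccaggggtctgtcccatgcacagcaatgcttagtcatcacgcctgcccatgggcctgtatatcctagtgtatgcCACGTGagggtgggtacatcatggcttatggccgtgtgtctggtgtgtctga
Prdm1: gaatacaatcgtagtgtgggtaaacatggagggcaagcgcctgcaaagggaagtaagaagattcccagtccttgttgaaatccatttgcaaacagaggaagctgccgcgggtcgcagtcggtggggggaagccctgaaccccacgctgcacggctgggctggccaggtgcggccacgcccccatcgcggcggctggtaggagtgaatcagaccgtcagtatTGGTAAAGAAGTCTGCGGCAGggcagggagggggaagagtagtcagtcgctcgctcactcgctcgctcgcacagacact

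The CUT&Tag lists, made from digested whole glands, held few summits near lymphoid genes. Within 5 kb of a start, Bmal1 had summits at 3 of 23 members in replicate 1 (13.0%, against 40.4% of all genes) and at 2 in replicate 2 (8.70%, against 18.8%). Nr1d1 had 1 (4.35%, against 9.14%) and 4 (17.4%, against 42.7%), and Dbp had 4 (17.4%, against 45.7%) and 0 (0%, against 15.5%). The 15 members without a summit in any list included Cd3d, Cd3e, Cd3g, Cd79a and Jchain.

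The members with summits in 3 of the 6 lists were Prdm1, Cd247 and Cd5. Counted from the start, negative before it, they lay at -19 for Bmal1, 86 for Nr1d1 and 72 bases for Dbp at Prdm1, each in 1 of 2 replicates. At Cd247 they lay at -1184, -1213 and -1253 bases for Bmal1, Nr1d1 and Dbp. For no target did both replicates hold a summit near the same member. Cd247 and Cd5 were not called between control times by limma, and Prdm1 was not tested. Zap70 had no summit in any list, and the Bmal1 summit at Cd37 lay 3707 bases after the start.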

How the data were processed

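RNA was measured in 10 submandibular gland libraries, and CUT&Tag summits in 6 lists. The expression values are FPKM per gene, computed by the authors. Per the submitters' processing notes, HISAT2, SAMtools, Cufflinks, Bowtie2 and mouse build mm10 were used, with no role or version stated, and no annotation is named. Each CUT&Tag list holds summits of 1 bp and a deposited score of unstated scale, which was not used. Depth is unknown, since FPKM holds no counts, and 2 libraries per group limit the precision.

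Of 55398 entries per file, 217 entries of 107 repeated symbols were left out and 55181 genes joined. A gene entered the test where 2 or more libraries reached 1 FPKM (15161 genes, 39 of them members). The log2(FPKM + 1) values were modelled by limma 3.58.1 under R 4.3.3 (trend, group means over all 10 libraries, 5 residual degrees of freedom). Fold differences on this scale understate the change of low genes. Two-sided p-values were adjusted after Benjamini and Hochberg, and genes called at an adjusted p under 0.05. Of the members, 15 reached 1 FPKM in no library without Glycam1 and so passed the filter through the 3 libraries with it. The ZT3 labels mark a starting point, so ZT3 served as control for 24 h and ZT9, 6 h later, for 6 h. The comparisons share control samples.

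Members, gene lists, tests and most alternatives were chosen with earlier results of these data known. Per-library values were set to be given for 26 members and for any called member, and the rest by range. Gene pairs were tested by exact permutation, as 7 libraries allow, in place of the resampling planned. The fitting was tested on simulated data. Python 3.11.15, numpy 2.4.6, pandas 2.3.3, scipy 1.17.1 and matplotlib 3.10.9 were used. Promoters and gene starts came from RefSeq (GRCm38.p6). Protein motifs were not analysed here. Alternatives covered the pseudocount, filter, scaling, libraries in the fit, replicate block, a Y-linked term, the control time and leaving out each library.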

Additional observations from a re-analysis of the deposited data

How the results depend on the processing

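With 2 libraries per group, the tests could miss large differences, and FPKM gives no depth behind low values. Of 112 alternatives for the count of members called, 111 gave 0. The exception was a fit with only the libraries compared, which called 1 member, Jchain, at 24 h against ZT3. Class medians turned in sign at 6 h without 6 h replicate 2 or with ZT3 as the control, as given above. A change of control between ZT3 and ZT9 is also a change between libraries with and without Y-linked transcripts. The median of the T cell genes at 24 h was -2.72 with a pseudocount of 0.1. The median of the cytotoxic genes at 6 h was -0.25 against the mean of the 3 control times. Leaving out each library gave medians of -0.17 to 1.17 (T cell), -0.13 to 1.18 (B cell), -0.38 to 2.13 (plasma cell) and -0.01 to 0.29 (cytotoxic) at 6 h. At 24 h they were -2.44 to -0.26, -3.22 to -0.03, -3.80 to -1.47 and -0.66 to -0.16.

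The number of genes called over the whole table moved more. At 24 h against ZT3 it was 75, and 133 with no filter, 34 with median-of-ratios scaling, 26 with only the libraries compared, 19 with a Y-linked term, 774 with ZT9 as control, 842 against the mean of the 3 control times and 4 without the 3 libraries with Glycam1, an alternative added after the data were seen. At 6 h against ZT9 it was 78, and 30, 35, 120 (with ZT3), 154 and 0 under the same settings from the libraries compared onward. Leaving out each library gave 11 to 237 genes at 24 h and 4 to 82 at 6 h. The cause was not tested.

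With the replicate block, 0 members were called in any comparison, and 60 genes at 6 h and 53 at 24 h. The labels do not say that a replicate number pairs samples, and the correlations of the differences between replicates ranged from -0.14 to 0.47 across pairs of groups.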

Other observations

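Pigr, the receptor that carries dimeric IgA across the epithelium, did not follow the IgA chain. It was at 251 and 389 FPKM at 24 h, where Igha was at 83.3 and 137 FPKM, and at 249 and 216 FPKM at ZT3, where Igha was at 1023 and 1573 FPKM. In ZT15 replicate 2 Pigr was lowest, at 34.2 FPKM. Ccl28, an epithelial chemokine that draws IgA plasma cells, was at 141 and 196.1 FPKM at 24 h and at 116 and 102 FPKM at ZT3. limma called neither gene in 24 h against ZT3.

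Cxcl13, the chemokine that draws B cells into follicles, was at 14.9 and 6.31 FPKM at 24 h although Glycam1 and Ms4a1 were listed at 0 there. It was at 0.720, 0.586, 0 and 1.14 FPKM in the 4 unirradiated libraries without Glycam1, at 1.46 FPKM in 6 h replicate 1 and at 14.7 to 39.2 FPKM in the 3 libraries with Glycam1. Over the 7 libraries without Glycam1, limma gave irradiated against unirradiated a log2 difference of 2.08 (SE 0.57, adjusted p = 0.242). Each of the 3 irradiated libraries was above each of the other 4, as was the case for 11.6% of genes tested.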
